A study of Saccharomyces cerevisiae with 6 samples.

Results

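Yeast (Saccharomyces cerevisiae) carrying degrons on Ccr4 and Pop2, the deadenylases of the Ccr4-Not complex, were compared with wild-type yeast by direct RNA sequencing on nanopores. This assay reads native polyadenylated RNA and gives a read count and a median poly(A) tail length for each gene. The Ccr4/Pop2 degron libraries (2) and the wild-type libraries (2) are 4 of the 6 libraries of the series, were chosen by strain name and were paired by replicate number. RNA level was compared for all 4909 listed genes, and tail length for the 3961 genes (80.7%) with 20 or more reads in each of the 4 libraries.

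The degron strain LMA5601 is BY4741, Mat a, with TAO3_E1493Q, an inserted A at -308 of RME1 (YGR044c), and at trp1-1 a cassette of TRP1, prURA3-Z3EVtf-tURA3 and Z3EV-TIR. Its degron alleles are AID-3Flag-CCR4 and CAF1(YNR052c)::AID-KanMX6, where CAF1 is another name of POP2. The wild type is BY4741, Mat a, with leu2Δ0, his3Δ1, ura3Δ0 and met15Δ0. A strain with a degron on the decapping enzyme Dcp2 (LMA5574: BY4741, Mat a, the same TAO3, RME1 and trp1-1 alleles, and DCP2(YNL118c)::polyG-3Flag-AID::kanMX) has 2 libraries that entered the fit of RNA levels. All strains grew at 30 °C in YPD, a rich glucose medium, to an OD600 of 0.4, and all were given 100 µM IAA, an auxin, and 1 µM β-oestradiol for 1 h. The degron and wild-type strains differ in more alleles than the tags, so the comparison is between strains. Nothing in the labels says that the libraries of a strain came from separate cultures, and p-values then measure the spread between these libraries, which may be technical. In a bulk sample, fewer cells with an RNA and less of it per cell cannot be told apart.

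Messenger RNAs receive a poly(A) tail in the nucleus, and in the cytoplasm the tail is shortened before the cap is removed and the RNA is degraded from its 5′ end. Pan2-Pan3 and Ccr4-Not carry out the shortening. In Ccr4-Not, Ccr4 and Pop2 are nucleases held on the scaffold Not1. RNA-binding proteins such as the Puf proteins can bring the complex to particular messages.

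The deposited counts summed to 8450296 and 1825046 in the Ccr4/Pop2 degron libraries, against 1857632 and 1751159 in the wild-type libraries. All 4909 counts of Ccr4/Pop2 degron replicate 1 are multiples of 4, against between 23.8% and 25.9% of counts in the other libraries, so its depth in separate reads is uncertain. The lowest count in that library is 20, and it is also 20 in Dcp2 degron replicate 1. By contrast, 594 genes of Ccr4/Pop2 degron replicate 2, 249 genes of wild-type replicate 1 and 788 genes of wild-type replicate 2 lie under 20. Why no listed gene lies lower in Ccr4/Pop2 degron replicate 1 or Dcp2 degron replicate 1 is not stated. If genes with fewer counts there were left out, strong falls in either degron may be missing, whereas rises from few wild-type counts are kept. Levels below are CPM, counts relative to the library total corrected by TMM factors, and changes are log2 values of the Ccr4/Pop2 degron minus the wild type. In both strains replicate 2 held relatively more of the short genes: its log2 level minus that of replicate 1 had a Spearman coefficient with coding length of -0.505 in the Ccr4/Pop2 degron and -0.518 in the wild type, across 4907 genes that are not independent. The model for RNA levels carried the replicate number as a block because the comparison pairs libraries by that number. This choice was made with earlier results of these data known.

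POP2, which encodes the tagged nuclease, was listed at 43.7 and 30.8 CPM in the Ccr4/Pop2 degron and at 70.5 and 49.9 CPM in the wild type. The groups did not overlap, and the log2 change was -0.69 (SE 0.18; edgeR quasi-likelihood test, adjusted p = 0.00694 with the replicate block and 0.716 without). Its tail measured 57.8 and 55.3 nt against 33.2 and 42.2 nt. A degron acts on the protein, so the RNA does not measure depletion. CCR4 is not among the listed genes and was not analysed here. Of 11 listed genes of the Ccr4-Not list POP2 fell and 2 rose (18.2%, near the 14.2% of all genes that rose), CAF40 (log2 change 0.74) and MOT2 (0.67), which encode other subunits of the complex. Both calls were lost without the replicate block, at edgeR adjusted p = 0.793 and 0.801.

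Genes in the strain labels were checked next. TRP1 was listed at 103 and 175 CPM in the Ccr4/Pop2 degron and at 67.4 and 148 CPM in the wild type, with a log2 change of 0.43 that passed the test (edgeR, adjusted p = 0.0374). HIS3 had values of 76.7 and 50.7 CPM against 85.9 and 72.5 CPM, and TAO3 of 27.0 and 30.8 CPM against 31.4 and 28.2 CPM. Neither passed the test. RME1, URA3, LEU2 and MET15 (MET17) were not among the listed genes. The a-specific genes MFA1 and BAR1 were listed at over 100 CPM in all 4 libraries, and of the alpha-specific list SAG1 was the listed member, at 3.0 and 4.8 CPM in the Ccr4/Pop2 degron and 9.26 and 10.5 CPM in the wild type.

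Tails were longer in the Ccr4/Pop2 degron across nearly the whole transcriptome. The median gene had a tail of 50.7 and 51.6 nt in the Ccr4/Pop2 degron libraries and of 38.4 and 42.9 nt in the wild-type libraries. The groups did not overlap, and the difference of their means was 10.5 nt, with 12.3 nt in the replicate 1 pair and 8.68 nt in the replicate 2 pair. A two-sided exact permutation test over the libraries gave p = 0.333, the smallest that 2 against 2 libraries allow. Per gene, the difference had a median of 9.32 nt, and it lay between 4.62 and 14.9 nt for the genes from the 10th to the 90th percentile. The median log2 change was 0.30.

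By limma on log2 tail length, with the replicate number as a block, 2867 genes (72.4% of those tested) had longer tails at an adjusted p under 0.05, and 1 gene (0.0252%) had a shorter one. In 3564 genes (90.0%) both Ccr4/Pop2 degron libraries exceeded both wild-type libraries, and in 10 genes (0.252%) both lay below. The count of longer tails was 2341 without the block and 0 when all 6 libraries shared a single estimate of the spread, where 1788 genes had an unadjusted p under 0.05. It was 87 without Ccr4/Pop2 degron replicate 2 and 110 without replicate 1 of that strain. Once each library was centred on its own median, 6 genes (0.151%) were called longer and 4 (0.101%) shorter, so single genes that depart from the common shift were rarely resolved.

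**Figure D1:**
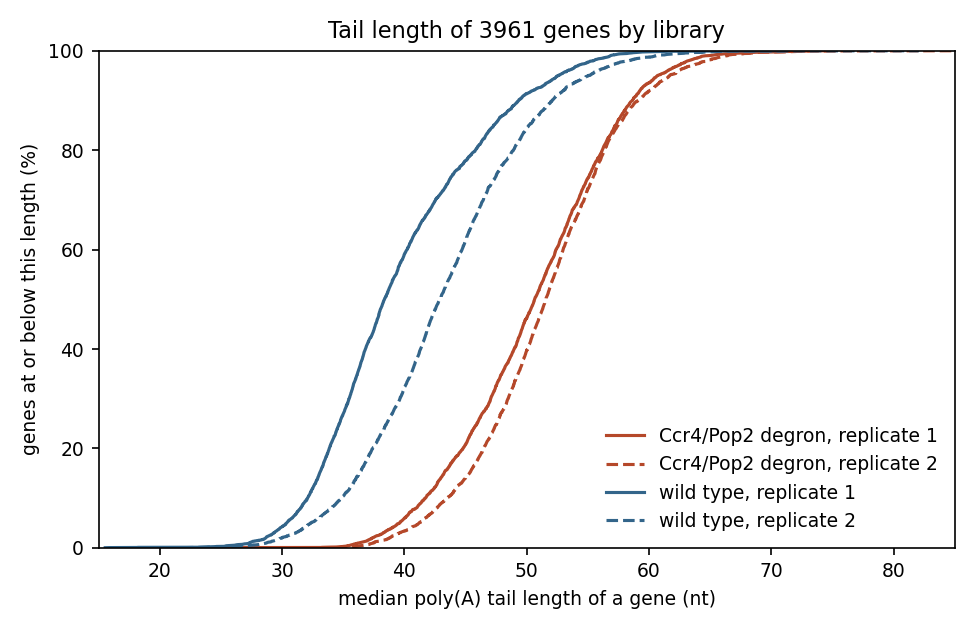
Share of 3961 genes (vertical axis, %) whose median tail is at or below the length on the horizontal axis (nt), with a line for each of the 4 libraries. Both Ccr4/Pop2 degron curves lie to the right of both wild-type curves at the median, at 50.7 and 51.6 nt against 38.4 and 42.9 nt.

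The wild-type tail of a gene moved with its change. To keep a library from entering both measures, genes were ranked by tail in a wild-type library and the change was taken from the pair with the other replicate number. In the replicate 1 pair, the quintile of genes with the shortest tails in wild-type replicate 2 had a median log2 change of 0.38, and the quintile with the longest tails had 0.26. In the replicate 2 pair, ranked by wild-type replicate 1, these values were 0.30 and 0.19. Measured in nucleotides the shortest and longest quintiles gained 10.2 and 9.11 nt in the replicate 1 pair, and 8.26 and 7.10 nt in the replicate 2 pair. The gain in nucleotides was not a steady decline: it was highest in the middle quintile of the replicate 1 pair (11.5 nt) and in the second quintile of the replicate 2 pair (8.47 nt). The Spearman coefficients between wild-type tail and log2 change were -0.267 and -0.251 across 3961 genes, which are not independent and share their libraries. Coding length had a coefficient of 0.0025 with the tail change.

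**Figure D2:**
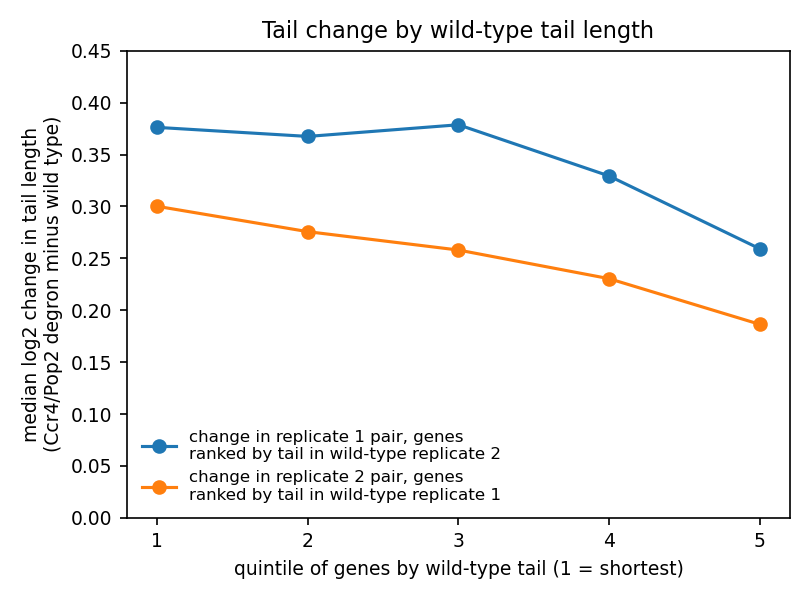
Median log2 change in tail length (vertical axis) in quintiles of genes ranked by tail length in a wild-type library (horizontal axis, from shortest to longest), with a line for each replicate pair. The change lies at 0.38 and 0.30 in the quintile with the shortest tails, and at 0.26 and 0.19 in the quintile with the longest.

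Genes whose tails lengthened most had tails below the median gene in the wild type, which a ranking by log2 change favours. Ranked by the smaller of both pair changes, the first 8 were ADF1, BUD4, BCK2, LSM3, APC1, EXO70, SLN1 and CDC20, all called longer. BUD4, which encodes a protein of the axial bud site, had tails of 49.2 and 45.1 nt in the Ccr4/Pop2 degron and 25.4 and 21.8 nt in the wild type, a log2 change of 1.00 (SE 0.085; limma, adjusted p = 0.00898). Its RNA level did not pass the test, at a log2 change of -0.09. LSM3, a subunit of the Lsm rings that bind U6 RNA and decapping substrates, had tails of 41.1 and 41.1 nt against 23.5 and 23.3 nt, a log2 change of 0.81. CDC20, the activator of the anaphase-promoting complex, had tails of 54.9 and 51.8 nt against 33.5 and 23.4 nt, and APC1, the largest subunit of that complex, 58.1 and 50.3 nt against 32.4 and 29.1 nt. The groups did not overlap in any of these 4 genes. ADF1 lies within the span of FYV5 on the opposite strand, and the use of strand in counting is not given in the sources used here, so its value is uncertain.

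Among the 724 genes with 200 or more reads in all 4 libraries, the same rule gave LSM3, SRP40, EFG1, YAR1 and RPL33B. SRP40 and EFG1 act in the making of ribosomal RNA and small subunits, YAR1 is a chaperone of the ribosomal protein Rps3, and RPL33B encodes a ribosomal protein of the large subunit. EFG1 tails measured 53.4 and 52.0 nt in the Ccr4/Pop2 degron and 33.7 and 35.7 nt in the wild type, and RPL33B tails 36.8 and 37.2 nt against 25.8 and 26 nt. The RPL33B change of 11.1 nt was close to that of the median gene in nucleotides and larger on the log2 scale, at 0.52.

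At the other end stood messages of stress and carbon metabolism. The least-changed genes by the larger of both pair changes were HSP104, YCL042W, ENO1, HSP42, ALD4, TDH1, RTC3 and SDH4. HSP104, the disaggregase that pulls proteins out of aggregates, had tails of 44.2 and 46.7 nt in the Ccr4/Pop2 degron and 53.1 and 56.8 nt in the wild type. It was the gene called shorter, with a log2 change of -0.27 (SE 0.084; limma, adjusted p = 0.0244), while its level rose (log2 change 0.77). The call was lost when either Ccr4/Pop2 degron library was left out and when all 6 libraries were fitted. For the other 7, whose tails did not pass the test, both Ccr4/Pop2 degron libraries lay below the same-numbered wild-type library. ENO1, a glycolytic enolase, had tails of 37.7 and 38.4 nt against 41.5 and 41.7 nt, and RTC3, a stress-induced protein, 46.6 and 51.8 nt against 53.3 and 55.3 nt. YCL042W shares 106 bases with the glucokinase gene GLK1, whose own tails measured 50.8 and 52.0 nt against 53.0 and 64.6 nt. With 200 or more reads, the genes at this end were ENO1, LSP1, PNC1, SIS1 and TIP1, with log2 changes between -0.13 and 0.02.

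Medians of the tail change ranged widely over functional classes. Of 147 ribosome biogenesis genes with a tail, 137 (93.2%) were called longer, with a median log2 change of 0.38. Medians for genes of RNA polymerase I and III (20 of 24 longer), of the exosome, Ski complex and nonsense-mediated decay (17 of 19) and of the polyadenylation machinery (11 of 14) were 0.39, 0.39 and 0.41. Against the 72.4% of all genes, 2 of 15 glycolysis and fermentation genes were called longer, with a median of 0.15. Of the general stress list 5 of 26 were called longer and 1 shorter, with a median of 0.12, and of the glycogen and trehalose list 1 of 8, with a median of 0.08. HSP12 was among the stress genes called longer, with tails of 33.6 and 34.6 nt in the Ccr4/Pop2 degron and 15.5 and 24.9 nt in the wild type. Chaperone genes lay near all genes, with 14 of 23 longer, 1 shorter and a median of 0.28. So did cytoplasmic ribosomal proteins, with 117 of 137 and a median of 0.28. With 100 reads in all 4 libraries, 6 of 13 glycolysis and fermentation genes were called longer, against 1299 of all 1396. Stress and ribosome biogenesis genes then numbered 2 of 7 and 84 of 87. In nt, 0 of 15 glycolysis genes were called. Without wild-type replicate 2 the medians were 0.22 for glycolysis, 0.19 for general stress, 0.46 for ribosome biogenesis and 0.36 for all genes. Without wild-type replicate 1 they were 0.02, 0.06, 0.29 and 0.23.

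**Figure D3:**
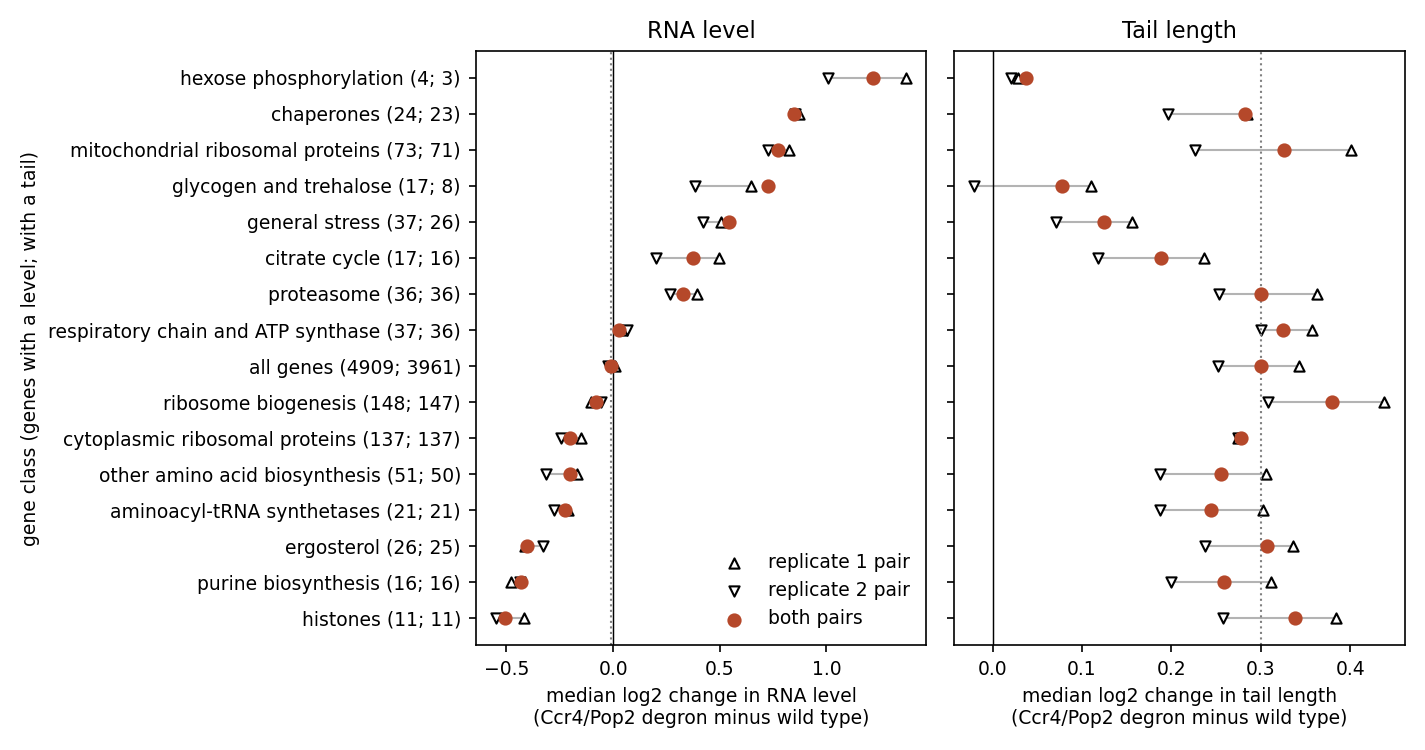
Median log2 change (Ccr4/Pop2 degron minus wild type) of 16 gene groups in RNA level (left) and in tail length (right), with both pairs together as a filled point, each replicate pair as a triangle and all genes as a dotted line. Hexose phosphorylation, chaperone and mitochondrial ribosomal protein genes have the highest median level changes (1.22, 0.85 and 0.78), and the first of these has a median tail change of 0.04.

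RNA levels moved in both directions. With the replicate block, edgeR's quasi-likelihood test called 698 genes higher (14.2% of those tested) and 629 lower (12.8%) in the Ccr4/Pop2 degron than in the wild type, of which 197 rose and 85 fell by more than 1 on the log2 scale. Without the block 4 genes (0.0815%) were called, all higher (HXT7, HXT6, YLR154C-H and GLC3), and 392 had an unadjusted p under 0.05. "Rose" and "fell" below mean a call with the block, and for nearly every named gene that call rests on the block. Scaling by total counts raised the median change of all genes by 0.11 and gave 991 higher and 433 lower, so the balance of the directions depends on the scaling. DESeq2 with the block called 398 higher and 390 lower. Leaving out wild-type replicate 1 left 243 higher and 152 lower, leaving out wild-type replicate 2 left 372 and 272, and leaving out Ccr4/Pop2 degron replicate 1 left 429 and 362.

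Transporters and kinases for hexoses were among the genes with the largest increases. HXT7 and HXT6, high-affinity glucose transporters that wild-type cells repress in high glucose, were listed at 733 and 583 CPM and at 580 and 417 CPM in the Ccr4/Pop2 degron, against 40.1 and 31.4 CPM and 37.6 and 27.4 CPM in the wild type. Their log2 changes were 4.19 and 3.93 (edgeR, adjusted p = 2.92e-12 and 5.85e-12). The HXT6 and HXT7 genes are nearly identical, so the split of reads between them is uncertain. MTH1, which encodes a corepressor of hexose transporter genes, rose by 2.31 and the transporter gene HXT4 by 1.96. HXT1 and HXT3, low-affinity transporters used in high glucose, fell by 0.75 and 0.78. In all, 5 of 9 listed hexose transport genes rose (55.6%, against 14.2% of all genes) and 3 fell (33.3%, against 12.8%).

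HXK1, a hexokinase, was listed at 329 and 161 CPM in the Ccr4/Pop2 degron and at 16.5 and 8.05 CPM in the wild type, a log2 change of 4.30 (SE 0.20; edgeR, adjusted p = 2.80e-11). GLK1 rose by 1.77 and EMI2, a glucokinase paralogue, by 0.67. HXK2, the main hexokinase during growth on glucose, did not pass the test, at 774 and 457 CPM against 844 and 538 CPM. Tails of HXT7 (59.3 and 63.6 nt against 56.4 and 58.2 nt) and HXT6 (59.2 and 64.1 nt against 55.8 and 60.4 nt) were not called.

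Several genes of storage carbohydrates also rose. GLC3, the glycogen branching enzyme, was listed at 60.9 and 59.6 CPM in the Ccr4/Pop2 degron and at 5.15 and 4.83 CPM in the wild type, from 568 and 87 counts against 10 and 6. GSY1, a glycogen synthase, and GPH1, glycogen phosphorylase, rose by 3.02 and 3.54, from 19 and 2 and from 4 and 2 wild-type counts, and GSY2 rose by 1.33. Of 17 listed genes of glycogen and trehalose metabolism, 8 rose (47.1%, against 14.2% of all genes) and 0 fell, with a median change of 0.73. The count was 5 without Ccr4/Pop2 degron replicate 1. It was 3 among the 8 of these genes with 20 or more counts in each of the 4 libraries.

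**Figure D4:**
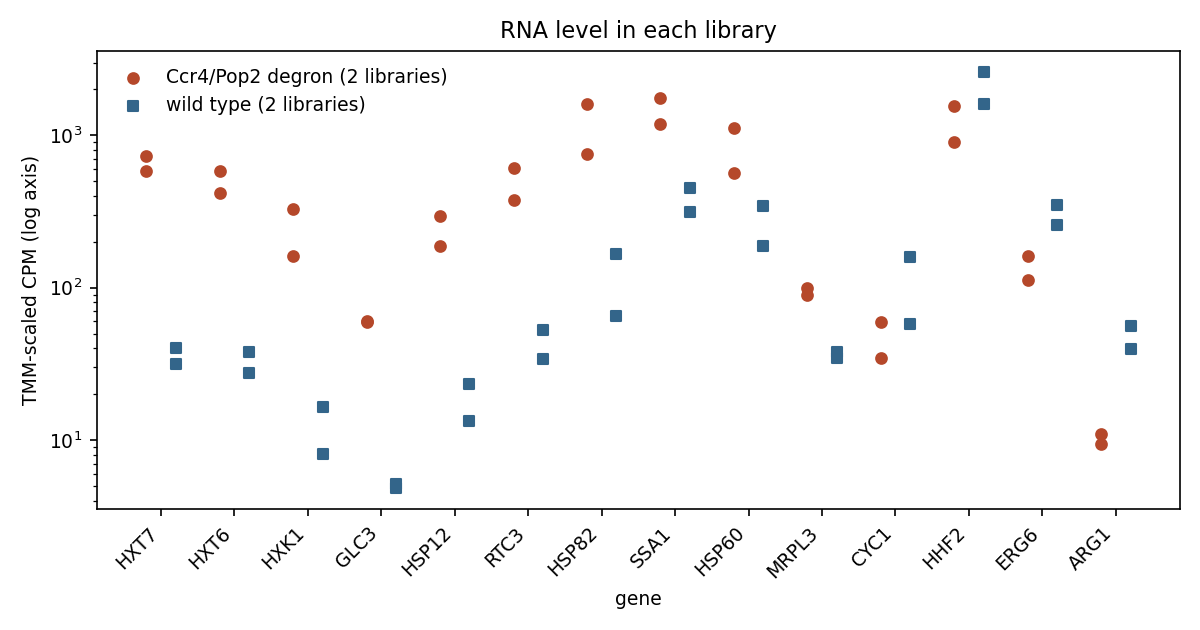
TMM-scaled CPM (vertical axis, log scale) of 14 genes in the 2 Ccr4/Pop2 degron libraries (circles) and the 2 wild-type libraries (squares). From HXT7 to MRPL3 both circles lie above both squares; for ERG6, HHF2 and ARG1 both lie below, and for CYC1 the groups overlap.

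General stress genes and chaperones formed a further set of increases. HSP104, HSP78, SSA4 and SSE2 are in both lists, so their counts are not separate. HSP12, a small membrane-stabilising stress protein, was listed at 188 and 297 CPM in the Ccr4/Pop2 degron and at 13.4 and 23.3 CPM in the wild type, a log2 change of 3.75 (edgeR, adjusted p = 5.40e-11). RTC3 and TMA10, also induced by stress, rose by 3.49 and 2.80, and GPP2, a glycerol-phosphatase, by 2.02. Of 37 listed general stress genes 18 rose (48.6%, against 14.2% of all genes) and 1 fell (2.7%, against 12.8%), with a median of 0.54. Without wild-type replicate 1 the count of higher genes was 11.

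HSP82, which encodes the inducible Hsp90, was listed at 1603 and 755 CPM in the Ccr4/Pop2 degron and at 166 and 65.2 CPM in the wild type, a log2 change of 3.40. SSA1, a cytosolic Hsp70, was listed at 1765 and 1186 CPM against 449 and 316 CPM, and HSP60, the mitochondrial chaperonin, at 1124 and 563 CPM against 345 and 188 CPM. Of 24 chaperone genes 18 rose (75%, against 14.2% of all genes) and 0 fell, with a median of 0.85. Fewer were called when a library was left out. The risers covered the cytosol (SSA1, SSA2, SSA4, YDJ1, SIS1), mitochondria (HSP60, HSP10, SSC1, HSP78) and the endoplasmic reticulum (KAR2), as well as Hsp90 and its partners (HSC82, STI1, AHA1, CPR6).

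Promoter sequences of one member of each list are shown because each list has a known motif in its promoters. The window runs from 400 to 101 bases before the start codon, in the RefSeq sequence of R64 (sacCer3), printed 5′ to 3′ on the gene's strand. In HSP12 capitals mark AGGGG, the core of the stress response element read by Msn2 and Msn4. In SSA1 they mark the heat shock element read by Hsf1 (GAA, any 2 bases, TTC, any 2 bases, GAA). Both were searched on either strand, and overlapping matches were joined. AGGGG also occurs in the SSA1 window, where it is left in lower case. SSA1 was shown as the chaperone gene with the largest level change among those with a heat shock element match. HSP82, whose change was larger, has no match to this pattern in its window.
HSP12 (chrVI:106856-107155, + strand): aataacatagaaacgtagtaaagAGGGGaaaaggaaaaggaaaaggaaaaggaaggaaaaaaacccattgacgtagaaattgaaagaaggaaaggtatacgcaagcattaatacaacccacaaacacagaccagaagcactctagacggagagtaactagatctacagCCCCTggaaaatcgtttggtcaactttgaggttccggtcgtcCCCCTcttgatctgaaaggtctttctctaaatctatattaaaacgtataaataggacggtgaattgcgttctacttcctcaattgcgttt
SSA1 (chrI:141532-141831, - strand): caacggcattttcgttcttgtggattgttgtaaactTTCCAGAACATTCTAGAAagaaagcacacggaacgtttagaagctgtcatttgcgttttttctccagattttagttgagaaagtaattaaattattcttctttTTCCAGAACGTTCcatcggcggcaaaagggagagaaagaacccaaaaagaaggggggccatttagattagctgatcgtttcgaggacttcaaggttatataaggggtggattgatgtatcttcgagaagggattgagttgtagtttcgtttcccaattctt
AGGGG was in the window of 91.9% of the general stress genes and 88.2% of the glycogen and trehalose genes, against 23.3% of all 4907 genes with a window. The heat shock element was in that of 12 of 24 chaperone genes (50%), against 1.16% of all genes. Of all 57 genes with this element 20 rose (35.1%) and 9 fell (15.8%), with a median of 0.26. Among all genes 14.2% rose and 12.8% fell.

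The 200 genes with 2 or more AGGGG matches differed from the rest in both readouts, while genes with 0 and with 1 were close. The median level change was -0.02 for 3763 genes with 0 matches, 0.01 for 944 with 1, 0.14 for 157 with 2 and 0.43 for 37 with 3; the other 6 genes, with 4 or more, had a median of 0.68, and 4 of them rose. The share of genes that rose was 13.2%, 14.7%, 26.8% and 40.5% for 0 to 3 matches. Median tail changes ran the other way, at 0.30, 0.30, 0.24 and 0.17. The stress list holds many genes known by this element, so these groups are not independent of it.

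Messages for the mitochondrial ribosome rose nearly without exception. These nuclear genes encode the proteins that, with mitochondrial ribosomal RNA, translate the messages of the mitochondrial genome. Of 73 listed genes 69 rose and 0 fell, against 14.2% of all genes, with a median log2 change of 0.78 and a range of 0.33 to 1.38. The 4 that did not pass the test were EHD3, MRP4, MRP20 and NAM9. The change was above 0 in both replicate pairs for 72 of 73, with medians of 0.82 and 0.72. Both Ccr4/Pop2 degron libraries exceeded both wild-type libraries in 37 of these genes (50.7%), against 16.5% of all genes.

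MRPL3 was listed at 89.6 and 99.4 CPM in the Ccr4/Pop2 degron and at 34.5 and 37.8 CPM in the wild type, a log2 change of 1.38 (SE 0.17; edgeR, adjusted p = 1.73e-05). MRPS8 was listed at 103 and 210 CPM against 40.1 and 80.5 CPM, a change of 1.37. MRP21, at 86.1 and 259 CPM against 39.6 and 115 CPM, rose by 1.14 in spite of overlapping ranges, and SWS2 rose by 1.08. Without the block 0 of the 73 genes were called, with 20 at an unadjusted p under 0.05 and a median of 0.76. Leaving out wild-type replicate 1 left 28 called, leaving out wild-type replicate 2 left 48, and all other alternatives left 56 or more. Their tails lengthened like those of other genes, with 54 of 71 called longer and a median of 0.33.

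**Figure D5:**
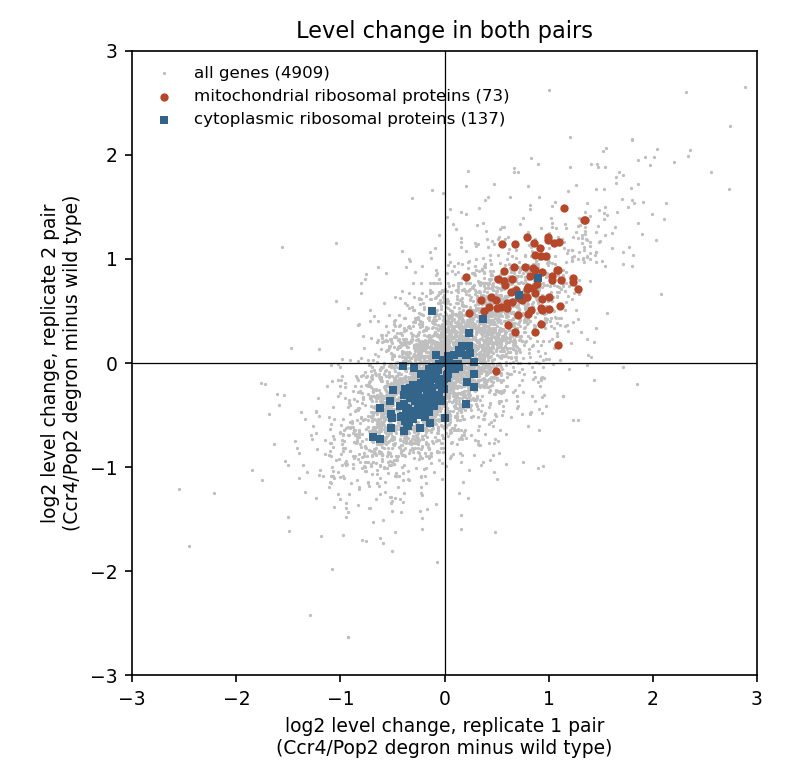
Log2 level change of each gene in the replicate 1 pair (horizontal axis) and the replicate 2 pair (vertical axis), from CPM with 1 added, for all genes (grey), 73 mitochondrial ribosomal protein genes (circles) and 137 cytoplasmic ribosomal protein genes (squares); 16 genes lie outside the axes. Mitochondrial ribosomal protein genes lie above 0 in both pairs in 72 of 73 cases, and cytoplasmic ones cluster a little below 0.

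The sequence downstream of these genes carries a shared motif. Puf3 is a yeast Puf protein known to bind messages of nuclear-encoded mitochondrial proteins at TGTANATA and to work through the Ccr4-Not deadenylases. The motif was searched on the RNA strand in the 200 bases after the stop codon and is shown in capitals, as DNA, for the 4 mitochondrial ribosomal protein genes with the smallest adjusted p, for COX17, a copper chaperone of cytochrome oxidase and the best-studied Puf3 target, and for HSP10, a mitochondrial co-chaperonin. Coordinates are those of R64 (sacCer3), and each stretch has 11 bases on either side of the motif.
MRPS8 (chrXIII:572761-572790, + strand): tatacggaccaTGTAAATAataatattata
MRPL3 (chrXIII:323054-323083, + strand): gtttgccatttTGTAGATAgagaactcctt
MRPL3 (chrXIII:323089-323118, + strand): gaatacattctTGTACATAtatatatacac
MRP21 (chrII:49401-49430, + strand): atttccgtcttTGTAAATAggtaatgcgta
SWS2 (chrXIV:476044-476073, - strand): ttgtcactcccTGTATATAatgtatttgtt
COX17 (chrXII:131155-131184, - strand): caaccatttctTGTATATAtaagaataggt
COX17 (chrXII:131110-131139, - strand): tatatactaccTGTAAATAtgtgcgatgca
HSP10 (chrXV:370451-370480, - strand): atgtatgtaccTGTAAATAggccattatgt
The motif begins 57 bases after the stop codon in MRPS8, 18 and 53 in MRPL3, 54 in MRP21, 126 in SWS2, 32 and 77 in COX17 and 55 in HSP10. COX17 was listed at 182 and 420 CPM in the Ccr4/Pop2 degron and at 76.2 and 206 CPM in the wild type, a log2 change of 1.14 (edgeR, adjusted p = 7.72e-06), and HSP10 rose by 1.13.

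TGTANATA was found downstream of 72 of the 73 mitochondrial ribosomal protein genes (98.6%) and of 765 of all 4907 genes (15.6%). Where the end of the message lies within the window was not measured, so a match is a stretch of genome and not a shown site. Of the 765 genes, 240 rose and 58 fell, with a median of 0.22. Of the 4142 genes with no match, 458 rose and 569 fell, with a median of -0.04. The reverse complement TATNTACA, which has the same content of G and C together, was downstream of 689 genes, of which 105 rose and 82 fell, with a median of 0.01.

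Outside the mitochondrial ribosome the motif went with higher levels among genes whose description names mitochondria. The description in the deposited table does so for 753 listed genes. They include HSP82, the inducible Hsp90 named above, so this is not a list of mitochondrial proteins. Leaving out the mitochondrial ribosomal proteins, 233 of them had the motif, of which 99 rose and 3 fell with a median of 0.48, and 447 lacked it, of which 73 rose and 38 fell with a median of 0.06. Of 460 genes with the motif and no such text, 73 rose and 55 fell, with a median of 0.01. A C at the second base before the motif, which Puf3 is known to prefer, was present in 231 genes, of which 123 rose and 7 fell with a median of 0.59. Without the mitochondrial ribosomal proteins, 174 such genes had a median of 0.42. The median tail change was 0.31 with the motif and 0.30 without.

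Set directly against the Dcp2 degron, which carries the same TAO3, RME1 and trp1-1 alleles, 55 of the 73 mitochondrial ribosomal protein genes were higher in the Ccr4/Pop2 degron and 0 lower (edgeR, adjusted p under 0.05 with the block). In that comparison 26.3% of all genes were higher and 20.8% lower. The median difference was 0.63 for the 73 genes and 0.08 for all genes. Classes that seldom rose against the wild type, and in part fell, were higher here too. They included 130 of 137 cytoplasmic ribosomal protein genes (median 0.66), 109 of 148 ribosome biogenesis genes (0.57) and 19 of 21 aminoacyl-tRNA synthetase genes (0.60). Against the wild type, 43 of the 137 cytoplasmic ribosomal protein genes fell (31.4%, against 12.8% of all genes) and 3 rose, with a median of -0.20. In 12 of them (8.76%, against 15.6% of all genes) both Ccr4/Pop2 degron libraries lay below both wild-type libraries. Of the 21 synthetase genes 5 fell and 0 rose against the wild type. Of 37 general stress genes 5 were higher than in the Dcp2 degron and 15 lower. The difference from the Dcp2 degron was therefore not particular to the mitochondrial ribosome. The comparisons with the wild type and with the Dcp2 degron share the Ccr4/Pop2 degron libraries, so they are not independent.

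Of 37 genes of the respiratory chain and ATP synthase 8 rose (21.6%) and 4 fell (10.8%), near the 14.2% and 12.8% of all genes, with a median of 0.03. CYC7 and COX5B, isoforms of cytochrome c and of cytochrome oxidase subunit 5 that are known from low oxygen, rose by 3.57 and 1.24. The aerobic counterpart CYC1 was listed at 34.7 and 59.6 CPM in the Ccr4/Pop2 degron and at 57.6 and 159 CPM in the wild type and fell by 1.03 on the log2 scale. STF1 and ATP20 rose by 1.34 and 0.92. Of 17 genes of the citrate cycle list 6 rose (35.3%) and 0 fell, with ACO1 (aconitase) up by 1.09 and CIT1 (citrate synthase) by 0.88. The list includes SOR1, which encodes a sorbitol dehydrogenase and not a citrate cycle enzyme. Fewer of its genes were called without wild-type replicate 1, wild-type replicate 2 or Ccr4/Pop2 degron replicate 1.

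Changes of proteasome subunits were smaller. Of 36 genes 16 rose (44.4%, against 14.2% of all genes) and 0 fell, with a median of 0.33 and medians of 0.40 and 0.26 in the replicate pairs. RPN7, a subunit of the regulatory lid, was listed at 270 and 262 CPM in the Ccr4/Pop2 degron and at 155 and 176 CPM in the wild type, a log2 change of 0.69 (edgeR, adjusted p = 0.00072). PRE3, a catalytic subunit of the core, rose by 0.65. The calls were few in smaller sets of libraries: 1 without wild-type replicate 1, 4 without wild-type replicate 2 and 5 without Ccr4/Pop2 degron replicate 1.

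Of 39 listed cell wall genes 15 rose (38.5%, against 14.2% of all genes) and 8 fell (20.5%, against 12.8%), with a median of 0.23. Both Ccr4/Pop2 degron libraries lay below both wild-type libraries in 2 of the 39 (5.13%), against 15.6% of all genes. The risers included CTS1, DSE1, DSE2, DSE3, EGT2 and SCW11, which encode or are linked to enzymes that separate the daughter from the mother cell, while DSE4 of the same kind fell. SCW11 was listed at 333 and 189 CPM in the Ccr4/Pop2 degron and at 106 and 53.9 CPM in the wild type, a log2 change of 1.71. PIR1 and HSP150, structural wall proteins, rose by 1.64 and 1.44. The count of falls was 2 without wild-type replicate 1 and 5 without Ccr4/Pop2 degron replicate 1.

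Among the listed genes, fewer fell than rose by more than 1 on the log2 scale. The lowest listed count of 20 in Ccr4/Pop2 degron replicate 1 may limit the falls that could be seen. Among the genes with the largest falls were ARG1, CLG1, ECM10, YJL218W, CLN2, PUT3, HFM1, MDM1 and SPC1, with log2 changes between -2.38 and -1.33. ARG1, argininosuccinate synthetase, was listed at 9.43 and 11 CPM in the Ccr4/Pop2 degron and at 56.1 and 39.5 CPM in the wild type. CLN2, a G1 cyclin, was listed at 17.6 and 15.1 CPM against 51.4 and 48.3 CPM, a log2 change of -1.60 (edgeR, adjusted p = 2.16e-05). CLG1, a cyclin-like partner of Pho85, was listed at 15.4 and 13.0 CPM against 95.2 and 31.4 CPM. In these 3 genes the groups did not overlap. HFM1, a meiotic helicase, had 52 and 1 counts in the Ccr4/Pop2 degron and 21 and 20 in the wild type. Relative to library totals its fall was larger in the replicate 2 pair, where the Ccr4/Pop2 degron value rests on 1 count.

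Falls were found in the synthesis of sterols, purines and amino acids. Of 26 ergosterol genes 13 fell and 0 rose, against 12.8% of all genes falling, with a median of -0.40. ERG6, a sterol methyltransferase, was listed at 161 and 113 CPM in the Ccr4/Pop2 degron and at 349 and 259 CPM in the wild type, a log2 change of -1.15 (edgeR, adjusted p = 4.77e-06). Of 16 purine genes 9 fell and 0 rose, with a median of -0.43, led by ADE17 (-1.12) and ADE13 (-0.80). Of 51 genes of other amino acids 18 fell and 4 rose, among the falls GDH1 (-1.07), HIS4 (-1.12) and GCN4, the activator of these pathways. CPA1, of the arginine pathway, fell by 1.26. Without wild-type replicate 1 the falls numbered 3 ergosterol, 3 purine and 6 amino acid genes; without wild-type replicate 2 they numbered 6, 6 and 9; without Ccr4/Pop2 degron replicate 1, 7, 5 and 14; and without Ccr4/Pop2 degron replicate 2, 8, 7 and 11. With total-count scaling the ergosterol falls numbered 7, beside 1 rise.

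Most listed histone messages fell too. Of 11 genes 7 fell (63.6%, against 12.8% of all genes) and 0 rose, with a median of -0.51. HHF2, a histone H4 gene, was listed at 899 and 1553 CPM in the Ccr4/Pop2 degron and at 1614 and 2621 CPM in the wild type, and HTB1, a histone H2B gene, at 893 and 576 CPM against 1344 and 960 CPM. Their log2 changes were -0.80 and -0.66 (edgeR, adjusted p = 5.32e-05 and 0.000593). The falls numbered 2 without wild-type replicate 1, 2 without wild-type replicate 2 and 4 without Ccr4/Pop2 degron replicate 2. Gene copies of each histone are nearly identical in coding sequence, and the split of reads between them is uncertain. All 8 listed Y′ telomeric helicase genes fell, with a median of -0.74, and as near-identical copies they count as a single observation.

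Level and tail changes were nearly unrelated across genes. The median log2 tail change was 0.29 for 578 genes that rose in level, 0.29 for 561 that fell and 0.30 for 2822 that did neither. With the level change taken from a pair and the tail change from the other, so that no library entered both, the Spearman coefficients were -0.11 and 0.107 across 3961 genes. Between pairs, the level changes had a coefficient of 0.657 and the tail changes of 0.366. Among the 12 genes with a tail value whose level rose by more than 2, the median tail change was 0.24, with median tails of 55.9 and 58.0 nt in the Ccr4/Pop2 degron and 50.2 and 53.3 nt in the wild type.

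The highest level change of all belonged to TAR1, at 122 and 239 CPM in the Ccr4/Pop2 degron and 1.03 and 6.44 CPM in the wild type, and YLR154C-H rose by 3.71. Both lie over ribosomal RNA genes, TAR1 within the 25S and its precursor and YLR154C-H over a 5S gene, and reads of ribosomal RNA cannot be told apart from reads of these genes without knowing how strand was used.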

How the data were processed

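Polyadenylated RNA was sequenced directly (SQK-RNA002 kit) and the authors deposited a table of counts and medians for 4909 genes. Per the file headers the values are a count per gene and library, not normalized, and a median. The medians are read here as tail lengths in nt, since nanopolish, a tail-length estimator, gives the table its name. Minimap2, SAMtools 1.9 and sacCer3 are named, with no role given, per the submitters' processing notes. The basecaller, the rule that assigns reads to genes and the use of strand are not given in the sources used here. Of the gene identifiers, 4908 matched RefSeq R64 (the same build as sacCer3), and sequence around 4907 coding regions was read from it. In 247 identifiers the suffix "exon" is present, and 9 genes share all 6 counts with another gene. All columns of single libraries could be assigned (0 left over).

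Groups and replicate numbers come from the sample titles and column names. Same-numbered libraries of both strains deviated together from their strain's mean, with a correlation across genes of 0.823 for log2 level and 0.148 for log2 tail. The labels do not say what the number marks. RNA level was tested with edgeR 4.0.16 in R 4.3.3 (TMM, filterByExpr, which removed 0 genes, glmQLFit, glmQLFTest) on all 6 libraries with the replicate number as a block, and tail length with limma 3.58.1 on log2 tails of 4 libraries with the same block. P-values were adjusted by the Benjamini-Hochberg method over all genes, and called under 0.05. The scripts were tested on simulated data. Alternatives were no block, other scalings, DESeq2 1.42.0, read minimums of 20 and 100, counts divided by 4 in Ccr4/Pop2 degron replicate 1, centred tails, and each library left out; centring without the block, counts of class members without each library and the contrast with the Dcp2 degron were added after seeing the data.

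The comparison, the gene lists (from textbook knowledge), the motifs and the tests were chosen with earlier results of these data known. Class members are described by counts and medians with no set test. Named genes were the 10 with the largest change in each direction among called genes with the same sign in both pairs and 20 or more counts in the higher group, the 8 with the largest and smallest tail changes (5 with 200 or more reads), the 4 members of each class with the smallest adjusted p, and genes of the strain labels. COX17, HSP10, CYC1, HXT1, HXT3 and members listed by name in a class were chosen after their values were seen. A gene that the rule selects is not reported here.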

Additional observations from a re-analysis of the deposited data

How the results depend on the processing

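The replicate block decided most level calls: with no replicate block 4 genes were called (4 higher, 0 lower), against 1327 with it, and 392 had an unadjusted p under 0.05. DESeq2 with the block called 788 (398 higher, 390 lower). Leaving out a library gave between 395 and 995 calls, of which 243 to 559 were higher and 152 to 436 lower; these fits hold fewer samples. Counts of Ccr4/Pop2 degron replicate 1 divided by 4 gave 1234 calls. Of 83 genes with a level result, 75 lost significance without the block and 82 kept direction and call under total-count scaling, where TAO3 turned to 0.031; it ranged from -0.29 to 0.17 with a library left out.

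The tail calls fell to 0 with all 6 libraries, with the replicate block or without it, and to 1300 (1299 longer) of 1396 genes with 100 reads, fewer genes being tested. Centred tails gave 10 calls with the block (6 longer, 4 shorter) and 0 without it (0 longer, 0 shorter). In nt, 2 genes were shorter. Leaving out a library gave between 87 and 3586 calls, 87 to 3583 longer and 0 to 17 shorter. Centring turned the tail changes of SIS1, TIP1, HXT7 and HXT6 to -0.31, -0.32, -0.23 and -0.25 with and without the block, and leaving out a library moved changes across 0, with ranges of -0.050 to 0.094 for SIS1, -0.035 to 0.057 for TIP1 and -0.14 to 0.013 for LSP1. The cause of each change was not tested. Depth limits 788 genes in wild-type replicate 2 with fewer than 20 reads.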

Other observations

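Of 6 listed genes of mating type a 4 rose in the Ccr4/Pop2 degron (66.7%, against 14.2% of all genes) and 0 fell. In 1 of the 6 (16.7%, against 15.6% of all genes) both Ccr4/Pop2 degron libraries lay below both wild-type libraries. BAR1, the secreted protease that degrades alpha factor, was listed at 348 and 226 CPM in the Ccr4/Pop2 degron and at 127 and 107 CPM in the wild type, a log2 change of 1.30 (edgeR, adjusted p = 3.46e-06). MFA1 and MFA2, which encode a-factor, rose by 0.72 and 0.59. Without wild-type replicate 2, 1 of the 6 was called. SAG1, the alpha-specific agglutinin gene, fell by 1.57 on the log2 scale, from 28 and 7 counts against 18 and 13.

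Of 27 redox defence genes 6 rose (22.2%, against 14.2% of all genes) and 0 fell, with a median of 0.01, and in 4 both Ccr4/Pop2 degron libraries lay below both wild-type libraries. The risers included PRX1, a mitochondrial peroxiredoxin (log2 change 1.39), and GRX5, a glutaredoxin of iron-sulfur cluster assembly (0.88), which has the TGTANATA motif downstream. The numbers called were 2, 3 and 3 without wild-type replicate 1, wild-type replicate 2 and Ccr4/Pop2 degron replicate 1. Of 26 iron regulon genes 3 rose and 3 fell (11.5% each, near the shares of all genes), with FET4, a low-affinity iron transporter, down by 1.14. Phosphate genes diverged: PHO5, a secreted acid phosphatase, was listed at 26.6 and 21.2 CPM in the Ccr4/Pop2 degron and at 68.9 and 51.5 CPM in the wild type, whereas PHO84, the high-affinity phosphate transporter, rose by 0.84. MDH2 and CIT2, of gluconeogenesis and the glyoxylate cycle, rose by 1.25 and 1.08.

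Among other decay factors the shares of called genes were near or under those of all genes, 14.2% higher and 12.8% lower. Of 18 listed genes of decapping and 5′-to-3′ decay 2 fell (11.1%) and 0 rose: EBS1 (-1.04) and LSM1 (-0.51), a subunit of the Lsm ring that binds deadenylated messages. Of 12 genes of Pan2-Pan3 and tail binding 1 fell (8.33%) and 0 rose. Of 21 genes of the exosome, Ski complex and nonsense-mediated decay 2 rose and 2 fell (9.52% each), and in 7 (33.3%) both Ccr4/Pop2 degron libraries lay below both wild-type libraries, against 15.6% of all genes.

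A second Puf motif, TGTANANTA, known for Puf4 and unable to share a start with TGTANATA, was downstream of 70 of 148 ribosome biogenesis genes (47.3%) and of 392 of all 4907 genes (7.99%). Of these 392 genes 54 rose and 54 fell (13.8% each, near the 14.2% and 12.8% of all genes), with a median level change of 0.00. Among ribosome biogenesis genes, tails of the 70 with the motif changed by a median of 0.36 and those of 77 without by 0.42.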
